A study of Arabidopsis thaliana with 76 samples.

Results

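Jasmonate is made from fatty acids of chloroplast membranes. The genes described here are 10 of the 33557 genes measured, all of them genes of jasmonate synthesis and response in *Arabidopsis* seedlings. They are the plastid lipase AT1G51440 (a DAD1-like lipase in RefSeq), the lipoxygenases *LOX2* (AT3G45140), *LOX3* (AT1G17420), and *LOX4* (AT1G72520), the allene oxide synthase *AOS* (AT5G42650), the allene oxide cyclases *AOC1* (AT3G25760) and *AOC2* (AT3G25770), the reductase *OPR3* (AT2G06050), the repressor *JAZ1* (AT1G19180), and the vegetative storage protein *VSP2* (AT5G24770). They were chosen by name with results of these libraries in view, and which values led to the choice is not recorded. No p-value given here is therefore support that is independent of the choice.

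All plants were of the Col-0 ecotype, each library came from a pool of seedlings, and sampling times are zeitgeber times (ZT, hours after lights on) of short days with 8 h light and 16 h dark. WT and *ss4* (*ss4-1*), a mutant of a starch synthase needed for starch granule initiation, were sampled at 17°C at ZT-4, 0, 1, 2, 4, 8, 12, and 16, with 2 libraries per genotype and time. The starch mutants *pgm* (plastidial phosphoglucomutase), *ss3/4* (a pair of starch synthases), and *ss3/4/pgm* were sampled at 17°C at ZT0 and ZT2, with 2 libraries each, and they were set against the WT libraries of the same times. WT at 22°C and at 27°C had 1 library at each of the same 8 times. WT in liquid media at 22°C and at 27°C was left untreated or was given mock, DCMU (30 µM), or DBMIB (50 µM) at ZT-1 and was sampled at ZT1, with 2 libraries per group. DCMU blocks electron transfer into the plastoquinone pool of the chloroplast, and DBMIB blocks electron transfer out of it. The labels do not say whether libraries of a group came from separate cultures, so p-values measure the spread between these pools.

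In jasmonate synthesis, a lipase frees linolenic acid in the chloroplast, and lipoxygenase, AOS, and AOC convert it in turn to OPDA, which OPR3 reduces in the peroxisome before β-oxidation gives jasmonic acid. The conjugate of jasmonic acid with isoleucine joins the receptor COI1 to JAZ repressors, which are then degraded, and MYC transcription factors are released. JAZ genes and *VSP2* are classical response genes of this pathway, which is best known for wounding, defence against insects, and flower fertility.

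Libraries with counts held 3204754 to 19679912 reads on genes, and replicates at 17°C correlated at 0.968 (WT ZT12) to 0.993 across genes. The libraries labelled DCMU or DBMIB stood apart, with correlations of 0.871 to 0.892 between replicates of a label against 0.992 to 0.994 in untreated and mock libraries, as described with the inhibitor results. *SS3* read 21.9 to 27.9 CPM (read counts scaled to library size) in *ss3/4* and *ss3/4/pgm* against 71.0 to 97.8 in WT and *pgm*, and *PGM1* 9.19 to 26.3 CPM in *pgm* and *ss3/4/pgm* against 61.8 to 100.0 in the others. *SS4* RNA was not lower in *ss4* (47.1 to 155 CPM) than in WT (44.0 to 189 CPM) and not lower in *ss3/4* (51.0 to 55.7 CPM) than in the WT libraries fitted with it (41.2 to 57.1 CPM), so it does not check the *SS4* part of these labels. Shoot markers were high in every library (4 genes, summed TPM of 5094 to 29314), as the seedling label requires. The summed root markers (4 genes, *COBL9*, *EXPA7*, *SCR*, and *NRT2.1*) ranged from 16.6 to 149 TPM. Such a sum cannot tell a change in root share from a change in expression of a marker gene. The seed markers (2 genes) were near 0 except for 57.5 TPM in *ss3/4* ZT2 replicate 1 and 16.8 TPM in WT ZT2 replicate 1. Of the flower markers (2 genes), *AP3* stayed under 1 TPM in every library.

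Upstream sequences of 4 of the genes are shown because these genes carry most of the results, *LOX2* and *AOS* at dawn and the neighbouring copies *AOC1* and *AOC2* over the day. Each is the 250 bases before the gene start in RefSeq's annotation of TAIR10.1, written 5′ to 3′ on the gene's strand. *LOX2* (chr3:16524995-16525244, plus strand) has the hexamer CACATG in capitals, and *AOS* (chr5:17099596-17099845, minus strand) has the G-box CACGTG in capitals, the last 6 bases before the gene start. *AOC1* (chr3:9403529-9403778, plus strand) and *AOC2* (chr3:9406419-9406668, plus strand) have in capitals the longest run that both contain, 19 bases, which begins 117 bases before the start of *AOC1* and 19 bases before the start of *AOC2*.
LOX2: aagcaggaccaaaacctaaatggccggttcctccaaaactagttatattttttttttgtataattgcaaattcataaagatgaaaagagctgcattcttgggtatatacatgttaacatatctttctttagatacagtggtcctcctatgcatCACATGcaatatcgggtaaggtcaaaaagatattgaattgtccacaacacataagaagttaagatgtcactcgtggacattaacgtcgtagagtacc
AOS: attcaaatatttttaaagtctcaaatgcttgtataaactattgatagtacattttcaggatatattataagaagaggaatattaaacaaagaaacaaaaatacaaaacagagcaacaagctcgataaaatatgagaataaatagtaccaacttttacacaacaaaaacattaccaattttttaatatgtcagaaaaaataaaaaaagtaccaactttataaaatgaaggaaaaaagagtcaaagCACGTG
AOC1: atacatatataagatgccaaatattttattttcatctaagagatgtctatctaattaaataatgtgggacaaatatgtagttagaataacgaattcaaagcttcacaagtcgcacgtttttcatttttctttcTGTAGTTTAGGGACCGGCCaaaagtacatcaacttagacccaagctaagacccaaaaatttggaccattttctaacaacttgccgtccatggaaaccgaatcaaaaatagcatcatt
AOC2: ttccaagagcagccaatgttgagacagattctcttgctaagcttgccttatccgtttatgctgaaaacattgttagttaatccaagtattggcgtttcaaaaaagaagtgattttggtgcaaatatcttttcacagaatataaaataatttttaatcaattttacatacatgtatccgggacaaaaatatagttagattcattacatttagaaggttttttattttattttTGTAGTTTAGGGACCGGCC
The G-box and its variants are known binding sequences of MYC2, the main transcription factor of the pathway. Over both strands of the same 250 bases of 27443 genes, CACGTG was in 6.49%, CACATG in 11.1%, AACGTG in 7.54%, and the evening element AAAATATCT, bound by clock factors, in 2.36%. None of these motifs contains another. Among the 10 genes, *AOS* held CACGTG, *LOX2* and *LOX3* held CACATG, *LOX4* and *AOC1* held AACGTG, and *LOX3* also held the evening element. The other genes had none of these letters in this window.

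In the deposited files, which the submitters' notes place on TAIR10, AT1G51440 lies at chr1:19070913-19072694, *LOX2* at chr3:16525410-16529352, *AOS* at chr5:17097595-17099395, *JAZ1* at chr1:6622094-6623620, and *VSP2* at chr5:8500476-8502224. *AOC1* (chr3:9403883-9405250) and *AOC2* (chr3:9406873-9407955) are neighbours, and their coding sequences are 90.3% identical. That of *VSP2* is 90.4% identical to its copy *VSP1*, and those of *LOX3* and *LOX4* are 80.6% identical. How reads matching more than one gene were counted is not given in the sources used here, so the split between these copies is uncertain. No stretch of 100 bases is shared between the transcripts of *AOC1* and *AOC2*. Shorter shared stretches were not counted, and the length of the reads was not taken into account.

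Levels per gene length, as the deposited TPM (scaled to gene length and library size), differed widely among the genes. In the 16 WT libraries at 17°C, *AOC2* had a median of 67.7 TPM and *AOS* of 67.1 TPM. *OPR3* (23.7 TPM), *LOX2* (21.4 TPM), *JAZ1* (21.2 TPM), and *AOC1* (14.5 TPM) formed a middle group by median. *LOX3* (2.09 TPM), *VSP2* (1.32 TPM), AT1G51440 (1.07 TPM), and *LOX4* (1.00 TPM) were lowest. Neighbours in this order overlapped in range, since *LOX2* alone spanned 4.06 to 154 TPM over the day. At 22°C and at 27°C, *AOS* and *AOC2* had the highest medians and *LOX4* the lowest.

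The first comparison asked how these genes moved through the day in WT at 17°C. Against ZT0, the end of the night, *LOX2* and *AOC2* rose through the light period and stayed high in the evening, *AOS* and *OPR3* peaked by day, AT1G51440 peaked in the early morning and was lowest in the evening, and *AOC1* passed the test at no time. The values of each library are CPM, and changes were tested on counts with edgeR's quasi-likelihood test, with the Benjamini-Hochberg adjustment run over the 20692 genes of that fit and a threshold of 0.05. In these pools of whole seedlings, fewer cells of a type and less RNA per cell cannot be told apart.

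**Figure D1:**
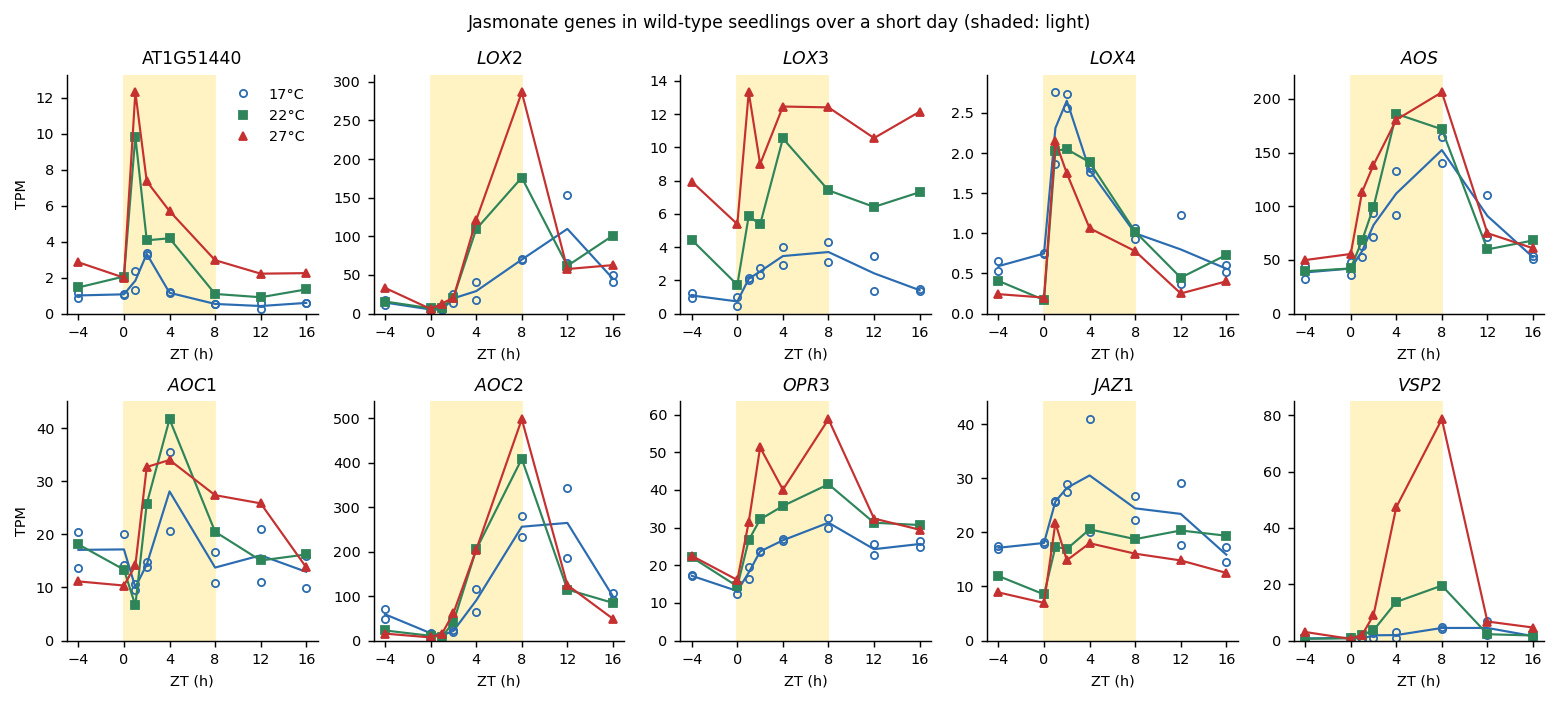
TPM (vertical axes) of the 10 genes against zeitgeber time in h (horizontal axes), with the light period shaded. Open circles are the 2 WT libraries per time at 17°C with a line through their means, squares are the single library per time at 22°C, and triangles the single library at 27°C. *AOC2* and *LOX2* climb to maxima at ZT8 or ZT12, while AT1G51440 is highest in the early morning.

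AT1G51440 is a DAD1-like lipase by annotation, and its part in jasmonate synthesis was not tested. It read 1.57 and 1.82 CPM (ZT0), 3.56 and 2.53 (ZT1), 4.83 and 4.96 (ZT2), 1.77 and 1.62 (ZT4), 0.788 and 0.715 (ZT8), and 0.364 and 0.914 (ZT12). Both ZT2 libraries were above all others, and those of ZT8 and ZT12 were below both of ZT0. The log2 fold change was 1.52 ± 0.31 (SE, adjusted p = 0.000407) at ZT2, -1.16 (adjusted p = 0.0166) at ZT8, and -1.42 (adjusted p = 0.00939) at ZT12. The evening falls of AT1G51440 rest on few reads. The fall at ZT8 did not pass without WT ZT0 replicate 2 (adjusted p = 0.117), without either WT ZT8 library (0.0554 and 0.0804), or with DESeq2 (0.0736). The fall at ZT12 did not pass without WT ZT0 replicate 2 (0.0743) or without WT ZT12 replicate 1 (0.162), and it was -2.18 on the log2 scale without WT ZT12 replicate 2.

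*LOX2*, the lipoxygenase of highest level, read 11.0 and 19.0 CPM (ZT0), 15 and 14.5 (ZT1), 71.0 and 40.4 (ZT2), 112 and 46.4 (ZT4), 185 and 198 (ZT8), 176 and 438 (ZT12), 133 and 118 (ZT16), and 29.0 and 47.2 (ZT-4). The dawn libraries of ZT0 and ZT1 were the lowest, and those from ZT8 to ZT16 did not overlap with any library from ZT-4 to ZT4. The rise over ZT0 passed from ZT2 (1.86 ± 0.41 SE, adjusted p = 0.000996) to ZT16 (3.04 at adjusted p = 4.36e-06) and was largest at ZT12, at 4.34 ± 0.42 (SE, adjusted p = 1.22e-08) on the log2 scale. Without WT ZT12 replicate 2, the library of 438 CPM, the *LOX2* value at ZT12 was 3.53, and without WT ZT4 replicate 1 that at ZT4 was 1.61 in place of 2.40. *LOX3* and *LOX4*, lipoxygenases of low level, first passed at ZT1. *LOX4* read 1.81 and 2.02 CPM (ZT0), 6.89 and 5.20 (ZT1), and 6.82 and 7.36 (ZT2), with no overlap between ZT0 and either later time, and was again at 1.53 and 1.35 (ZT16). Its log2 fold change was 1.66 ± 0.37 (SE, adjusted p = 0.00229) at ZT1 and 1.88 (adjusted p = 0.000237) at ZT2. *LOX3* read 2.78 and 1.21 CPM (ZT0), 6.39 and 7.0 (ZT2), and 7.56 and 10.6 (ZT8). It was higher than at ZT0 from ZT1 (1.53 at adjusted p = 0.00667) to ZT12 (1.69 at adjusted p = 0.00122), with the largest log2 fold change at ZT8, 2.22 ± 0.36 (SE). The rise of *LOX3* at ZT1 did not pass without WT ZT0 replicate 2 (adjusted p = 0.167) or without WT ZT1 replicate 2 (0.0549), and that at ZT12 did not pass without WT ZT0 replicate 2 (0.0507) or without WT ZT12 replicate 2 (0.0808).

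*AOS*, which makes the allene oxide from the lipoxygenase product, read 46.0 and 63.1 CPM (ZT0), 120.4 and 91.4 (ZT2), 165 and 113 (ZT4), 181 and 199 (ZT8), 93.7 and 150.2 (ZT12), and 68.6 and 66.6 (ZT16). It peaked at ZT8, where its log2 fold change over ZT0 was 1.80 ± 0.21 (SE, adjusted p = 1.23e-07). The cyclases, which act next, differed. *AOC2* read 9.54 and 10.9 CPM (ZT0), 15.3 and 11.6 (ZT2), 68.0 and 40.2 (ZT4), 147 and 159.7 (ZT8), 118 and 227 (ZT12), 56.1 and 67.6 (ZT16), and 27.8 and 42.4 (ZT-4). The 6 libraries of ZT0, ZT1, and ZT2 lay between 7.59 and 15.3 CPM, and all later libraries and those of ZT-4 were at 27.8 CPM or above. The log2 fold change of *AOC2* was 3.90 ± 0.29 (SE, adjusted p = 9.35e-11) at ZT8 and 4.07 (adjusted p = 7.48e-11) at ZT12, and *AOC2* was the only one of the 10 genes that passed between ZT-4 and ZT0 (1.78 ± 0.30 SE, adjusted p = 0.000417). *AOC1* read 8.57 and 12.5 CPM (ZT0), 20.2 and 11.9 (ZT4), 7.01 and 9.56 (ZT8), and 7.02 and 14.1 (ZT12), with overlapping libraries at most times. It passed only without WT ZT4 replicate 2 (ZT4, log2 fold change of 0.92, adjusted p = 0.0250), with no filter on low counts at ZT1 and ZT4, with only the ZT1 and ZT0 libraries in the fit, and with a term for the replicate number at ZT4. The ratio of the deposited TPM of *AOC2* to that of *AOC1* was 0.677 to 1.89 in the 12 libraries of ZT0, ZT1, and ZT2 at all temperatures and 16.8 to 21.4 in the 4 libraries of ZT8.

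*OPR3*, the reductase that acts before β-oxidation, moved by less and with close replicates. It read 13.9 and 14.7 CPM (ZT0), 19.5 and 23.3 (ZT1), 28.0 and 26.1 (ZT2), 31.1 and 30 (ZT4), 34.7 and 35.9 (ZT8), and 28.4 and 30.8 (ZT16), and every library after ZT0 was above both ZT0 libraries. The log2 fold change was 0.57 ± 0.12 (SE, adjusted p = 0.00149) at ZT1 and 1.30 ± 0.12 (SE, adjusted p = 1.76e-09) at ZT8. The rise at ZT1 did not pass without WT ZT1 replicate 2 (adjusted p = 0.0565).

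Of the response genes, *JAZ1* read 18.2 and 18.9 CPM (ZT0), 27.5 and 27.7 (ZT1), 29.0 and 30 (ZT2), and 19.7 and 41.4 (ZT4). Its ZT1 and ZT2 libraries were all above those of ZT0, and its ZT4 libraries differed widely. The log2 fold change was 0.67 (adjusted p = 0.045) at ZT2 and 0.68 (adjusted p = 0.0383) at ZT4. The first did not pass without any one of the ZT0 or ZT2 libraries (adjusted p of 0.104 to 0.160), and the second was 0.09 (adjusted p = 0.842) without WT ZT4 replicate 2, and it did not pass without either ZT0 library (0.139 and 0.117). *VSP2* read 1.33 and 0.606 CPM (ZT0), 2.98 and 1.06 (ZT2), 4.41 and 5.27 (ZT8), and 2.19 and 7.82 (ZT12). It was higher than at ZT0 at ZT8, by 2.34 ± 0.55 (SE, adjusted p = 0.00114) on the log2 scale, with no overlap between the groups. The *VSP2* value of 2.38 (adjusted p = 0.00178) at ZT12 fell to 1.21 (adjusted p = 0.123) without WT ZT12 replicate 2, and it was 3.03 without WT ZT12 replicate 1. WT ZT12 replicate 2 also had the highest summed root markers of all libraries, 44.0 and 149 TPM in the pair of ZT12 replicates, and their part in these values was not tested.

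Counted over the 10 genes, 1 was higher and 0 lower at ZT-4 than at ZT0, where 2.02% of all genes were higher and 2.11% lower. At ZT1, 3 were higher (all genes 7.74%) and 0 lower (8.04%). At ZT2, 7 were higher (15.9%) and 0 lower (15.9%), and at ZT4 again 7 (17.7%) and 0 (18.2%). At ZT8, 6 were higher (21.9%) and 1 lower (21.8%), at ZT12 6 (16.9%) and 1 (15.8%), and at ZT16 3 (10.9%) and 0 (11.9%). The median log2 fold change of the 10 genes was 0.97 at ZT2 and 1.55 at ZT8, and that of all genes was between -0.01 and 0.01 at each time. At ZT4, *LOX4* did not pass without either ZT0 library (0.0897 and 0.0652) or without WT ZT4 replicate 1 (0.0820). With only the ZT12 and ZT0 libraries in the fit, AT1G51440 (0.194), *LOX3* (0.149), *AOS* (0.0637), and *VSP2* (0.119) did not pass at ZT12. The summed root markers moved over the same hours, from 45.1 and 37.3 TPM at ZT0 to 94.7 and 128 TPM at ZT8, and the summed shoot markers from 18208 and 18803 TPM to 13316 and 12698 TPM. Their part in the result was not tested.

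Other genes of the pathway did not share one direction. Of 60 listed, 45 could be tested. At ZT1, 6 were higher and 2 lower (all genes 7.74% and 8.04%), among them *MYC2* (1.13 ± 0.11 SE, adjusted p = 5.59e-08), its relative *MYC4* (1.104 at adjusted p = 4.73e-07), and the repressor *JAZ5* (2.35 at adjusted p = 0.00145), all higher, and *ILL6*, which encodes a hydrolase of the jasmonate conjugate, lower (-1.01 at adjusted p = 0.00479). At ZT2, 11 were higher, led by the methyltransferase *JMT* (2.51 at adjusted p = 0.00563), and 9 lower (all genes 15.9% and 15.9%). At ZT8, 7 were higher, with *CORI3* (2.72 at adjusted p = 1.7e-06) and the transcription factor *ORA59* (2.06 at adjusted p = 0.00116) first, and 13 lower (all genes 21.9% and 21.8%), among them *JAZ9* (-1.75 at adjusted p = 1.08e-08) and *ST2A*, which encodes a sulfotransferase of a jasmonate derivative (-1.10 at adjusted p = 0.00504). *VSP1*, the copy of *VSP2*, was higher at ZT12 (2.77 at adjusted p = 0.0107). The median over these 45 genes was 0.03 at ZT2 and -0.06 at ZT8.

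At 22°C and 27°C, with 1 library per time and no test, *LOX2* and *AOC2* were highest at ZT8. At 17°C both were highest at ZT8 in the libraries numbered 1 and at ZT12 in those numbered 2, the latter being WT ZT12 replicate 2, the library with the highest root markers. At 22°C, *LOX2* went from 6.86 TPM at ZT0 to 176 TPM at ZT8, *AOC2* from 10.6 to 409 TPM, and *VSP2* from 0.783 to 19.5 TPM. At 27°C the same pairs of values were 5.96 and 287 TPM for *LOX2*, 7.01 and 498 TPM for *AOC2*, and 0.573 and 78.6 TPM for *VSP2*. AT1G51440 was highest at ZT1, at 9.84 TPM at 22°C and 12.3 TPM at 27°C. The daily maximum fell at ZT8 for 4 of the 10 at 22°C and for 5 at 27°C, against 6.95% and 12.5% of the 18155 genes that reached a TPM of 5 in some library. The lowest value was at ZT0 for 5 of the 10 at 22°C and for 9 at 27°C (all except *AOS*), against 25.1% and 29.1% of those genes. *LOX4* is the gene of the 10 that did not reach a TPM of 5.

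Between these temperatures, *LOX3* was higher at 27°C at 8 of 8 times and AT1G51440 and *OPR3* at 7 of 8. These 3 of the 10 genes are near the share of the 18155 genes that reached a TPM of 5, of which 28% were higher at 7 or 8 times. The median difference in log2(TPM + 1) over the 8 times was 0.67 for *LOX3*, 0.56 for AT1G51440, and 0.16 for *OPR3*, against a median of 0.06 over those 18155 genes. *AOS* was higher at 27°C at 6 of 8 times (median 0.33) and *LOX4* at 2 of 8 (median -0.18). *VSP2* had the largest difference, with a median of 1.19 and a maximum of 1.96 at ZT8, while its ZT0 and ZT1 values were slightly lower at 27°C. *JAZ1* was lower at 27°C at 7 of 8 times (median -0.24). *LOX2* (median 0.07), *AOC1* (0.06), and *AOC2* (0.06) were higher at 27°C at 4 of 8 times, so no direction was seen in these. The summed flower markers were 1.12 to 2.73 TPM at 22°C and 2.44 to 7.89 TPM at 27°C, and their part was not tested.

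Across the 32 libraries of WT and *ss4* at 17°C, *LOX2* and *AOC2* were the most alike of the 10 genes, with a Pearson r of log2(CPM + 1) of 0.95. The next pairs were *AOS* and *LOX3* (r = 0.84), *LOX2* and *VSP2* (r = 0.81), and *AOC2* and *VSP2* (r = 0.80), and AT1G51440 and *AOC2* were most opposed (r = -0.66). Among all tested genes, the 3 most like *LOX2* were AT3G52990 (r = 0.96), *AOC2*, and AT5G19540 (r = 0.95). The 3 most like *JAZ1* were *FC1* (r = 0.86), a ferrochelatase of heme synthesis, *NAC083* (r = 0.85), and AT4G24160 (r = 0.84), and those most like *VSP2* were AT4G15620, AT1G64710, and the purine permease *PUP1* (r = 0.90 each). These values are descriptions, since the libraries share their times of day and genotypes.

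**Figure D2:**
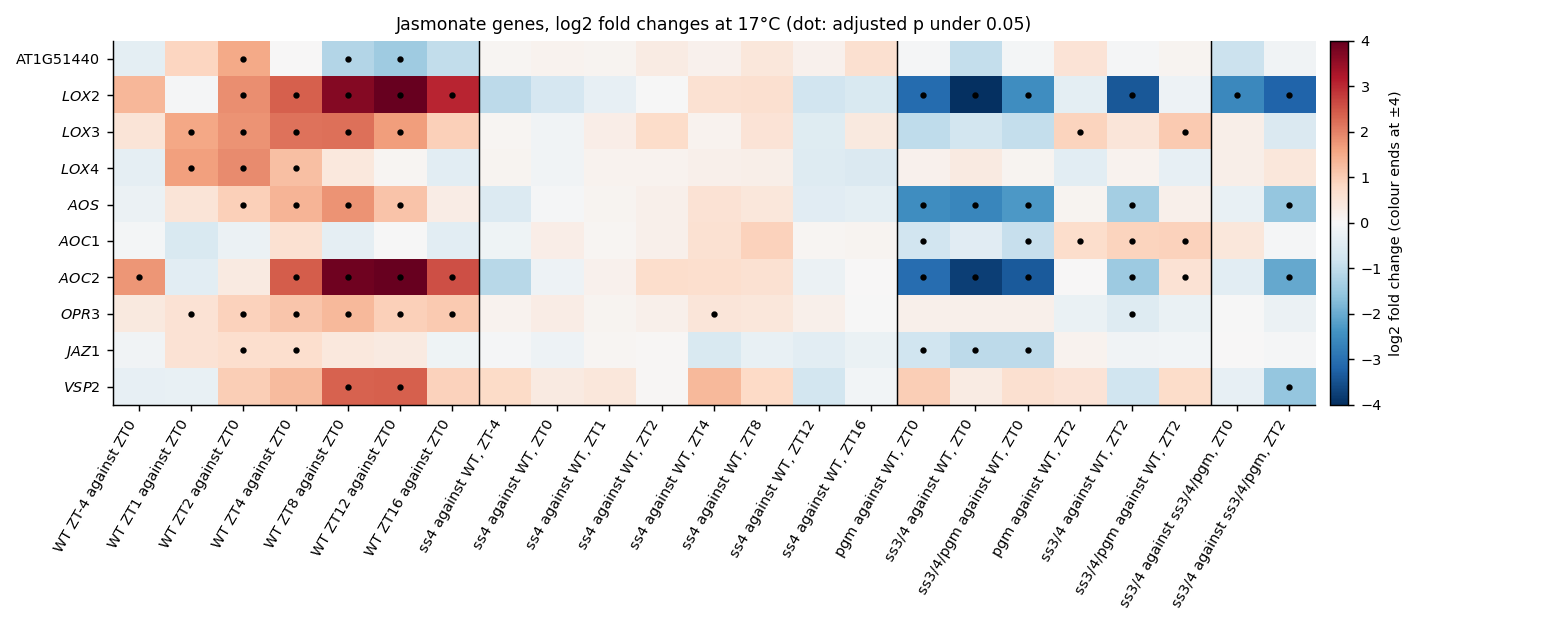
log2 fold changes (colour, with ends at -4 and 4) of the 10 genes (vertical axis) in 23 comparisons (horizontal axis), with a dot where the adjusted p was under 0.05. *LOX2* and *AOC2* are darkest red at ZT8 and ZT12 in WT, the *ss4* columns are pale with 1 dot, and blue marks *LOX2*, *AOS*, *AOC2*, and *JAZ1* in the starch mutants at ZT0.

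The comparison of *ss4* with WT at each time asked what loss of this starch synthase changes. Of 80 tests (10 genes at 8 times) 1 passed. *OPR3* at ZT4 read 43.0 and 42.6 CPM in *ss4* and 31.1 and 30 CPM in WT, without overlap, a log2 fold change of 0.48 ± 0.11 (SE, adjusted p = 0.0166), at a time when 2.88% of all genes were higher and 2.54% lower. It did not pass without *ss4* ZT4 replicate 1 (adjusted p = 0.0512) or replicate 2 (0.143) or WT ZT4 replicate 2 (0.142), or with only the groups compared (0.117). At the other times 0 of the 10 passed with edgeR, where 0.0483%, 0.0290%, 0.0532%, 0.532%, 0.00967%, 2.99%, and 0.0193% of all genes passed in either direction at ZT-4, 0, 1, 2, 8, 12, and 16. Of the 80 tests, 18 had an unadjusted p under 0.05, where 10.7% of the tests of all genes over the 8 times did, and DESeq2 gave 2, *OPR3* and *AOS* at ZT4. The edgeR counts above used the filter on low counts. With no filter, 10 of the 80 tests passed upward and 8 downward. The share of all genes under that setting is not given here.

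Several values in *ss4* lay outside the WT pair without passing. Those below are examples, and how many such tests there were, among these genes or all genes, is not counted here. At ZT8, *LOX2* read 307 and 296 CPM in *ss4* against 185 and 198 in WT (log2 fold change of 0.65, adjusted p = 0.985), and *AOC2* 245 and 225 against 147 and 159.7 (0.62, adjusted p = 0.985). At ZT-4, *LOX2* read 24.1 and 12.5 CPM against 29.0 and 47.2 in WT (-1.06, adjusted p = 0.59). Single WT libraries decided what passed at 2 times. Without WT ZT12 replicate 1, 7 of the 10 genes were lower in *ss4* at ZT12, *LOX2* with a log2 fold change of -1.27, where 28.9% of all genes passed in either direction, and the remaining WT library there is the one with high root markers. Without WT ZT4 replicate 1, *LOX2*, *AOS*, *AOC2*, *OPR3*, and *VSP2* were higher in *ss4* at ZT4 and *JAZ1* was lower (-1.08), where 8.23% of all genes passed. The change from ZT0 to ZT2 did not differ between *ss4* and WT for any of the 10 with edgeR (0.121% of all genes), 0 of them at an unadjusted p under 0.05. Of the 20692 genes tested, 939 had such an unadjusted p.

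The starch mutants at ZT0 asked how seedlings that make less or no starch differ from WT at the end of the night. *LOX2*, *AOS*, *AOC2*, and *JAZ1* were lower in each of the 3 mutants. CPM are scaled within each fit, so the WT values in the fit with the mutants differ from those of the time course. *LOX2* read 9.38 and 16.2 CPM in WT, 1.34 and 1.93 in *pgm*, 0.512 and 0.140 in *ss3/4*, and 2.20 and 2.36 in *ss3/4/pgm*, so that every mutant library was below both WT libraries and those of *ss3/4* were the lowest. Its log2 fold change was -3.08 ± 0.52 (SE, adjusted p = 5.7e-05) in *pgm*, -5.08 ± 0.54 (SE, adjusted p = 2.22e-07) in *ss3/4*, and -2.49 ± 0.38 (SE, adjusted p = 1.3e-05) in *ss3/4/pgm*. The *ss3/4* value rests on 7 reads against 279 in WT, a ratio of 35.3 (95% exact interval of 16.9 to 88.6, counting error only), and without *ss3/4* ZT0 replicate 1 it was -6.39. The *pgm* value rests on 13 reads.

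*AOS* read 39.3 and 54.0 CPM in WT, 8.69 and 7.72 in *pgm*, 8.54 and 6.59 in *ss3/4*, and 8.30 and 10.4 in *ss3/4/pgm*. All 6 mutant libraries were between 6.59 and 10.4 CPM, and the log2 fold changes were -2.48 ± 0.22 (SE, adjusted p = 2.11e-08), -2.60 ± 0.19 (SE, adjusted p = 1.32e-09), and -2.31 ± 0.18 (SE, adjusted p = 3.3e-09) in that order. *AOC2* read 8.14 and 9.33 CPM in WT, 0.835 and 1.54 in *pgm*, 0.854 and 0.280 in *ss3/4*, and 0.488 and 1.14 in *ss3/4/pgm*, again with no overlap with WT. Its log2 fold changes were -3.04, -3.76, and -3.34, the second being -4.89 without *ss3/4* ZT0 replicate 1 and the third -4.12 without *ss3/4/pgm* ZT0 replicate 2. They rest on 9, 12, and 16 reads of *AOC2* in the mutants, in that order, against 187 in WT. *AOC1*, the neighbouring copy, was lower in *pgm* (-0.76 at adjusted p = 0.0122) and *ss3/4/pgm* (-0.92 at adjusted p = 0.000843) by far less, and the first did not pass without WT ZT0 replicate 2 (0.165) or *pgm* ZT0 replicate 1 (0.0854).

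*JAZ1* read 15.6 and 16.2 CPM in WT, 9.86 and 7.72 in *pgm*, 8.45 and 6.73 in *ss3/4*, and 7.82 and 7.47 in *ss3/4/pgm*, about 1 unit lower on the log2 scale (-0.80 at adjusted p = 0.00569, -1.04 at adjusted p = 0.000175, and -1.06 at adjusted p = 0.000133). AT1G51440, *LOX3*, *LOX4*, *OPR3*, and *VSP2* did not pass in any mutant at ZT0. *LOX3* read 2.37 and 1.04 CPM in WT, which differed from each other, and without the lower of them (WT ZT0 replicate 2) it was lower in all 3 mutants (adjusted p of 0.0225, 0.0226, and 0.00923). Of the 10 genes, 0 were higher and 5 lower in *pgm* (all genes 28.1% and 28.9%), 0 and 4 in *ss3/4* (30.4% and 28.1%), and 0 and 5 in *ss3/4/pgm* (30.6% and 30.7%), all against the same WT libraries. The summed root markers were also lower in the mutants, 16.6 to 26.1 TPM against 45.1 and 37.3 TPM in WT, while the summed shoot markers were higher than both WT libraries in *pgm* and *ss3/4/pgm* (18864 to 29314 TPM) and lower in *ss3/4* (14384 and 17586 TPM), against 18208 and 18803 TPM. Their part was not tested. Whether the mutants and WT were grown or sequenced together is not given in the sources used here, so genotype and any such batch cannot be told apart.

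At ZT2, after lights on, *LOX2*, *AOS*, and *AOC2* were low in *ss3/4* alone among the mutants. *LOX2* read 62.1 and 35.2 CPM in WT, 28.6 and 43.2 in *pgm*, 4.12 and 5.21 in *ss3/4*, and 41.6 and 41.7 in *ss3/4/pgm*. The *ss3/4* libraries lay far below the other 6, with a log2 fold change of -3.40 ± 0.29 (SE, adjusted p = 2.31e-08) against WT and -3.20 ± 0.30 (SE, adjusted p = 2.95e-07) against *ss3/4/pgm*. *AOS* read 34.4 and 37.7 CPM in *ss3/4*, against 105 and 79.6 in WT and 108 and 103 in *ss3/4/pgm* (-1.36 at adjusted p = 5.26e-07 and -1.56 at adjusted p = 4.7e-07). *AOC2* read 4.12 and 4.29 CPM in *ss3/4*, against 13.4 and 10.1 and 18.6 and 16.0 (-1.47 at adjusted p = 4.06e-05 and -2.06 at adjusted p = 3.49e-06). These 3 genes of consecutive steps were thus lower in *ss3/4* than in *ss3/4/pgm*, which carries the same starch synthase mutations with *pgm* added. *OPR3* was lower in *ss3/4* than in WT by less (-0.51 at adjusted p = 0.00479) and did not pass without *ss3/4* ZT2 replicate 1 (0.182), the library with the seed markers, or with DESeq2 (0.0550).

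*AOC1* was higher in all 3 mutants at ZT2, opposite to *AOC2* in *ss3/4* only. It read 7.70 and 8.11 CPM in WT at ZT2, 13 and 13 in *pgm*, 15.5 and 13.6 in *ss3/4*, and 16.8 and 12.8 in *ss3/4/pgm*, so that all mutant libraries were above both of WT (0.71 at adjusted p = 0.00618, 0.89 at adjusted p = 0.00042, and 0.93 at adjusted p = 0.000585). With reads of *AOC1*, *AOC2*, and *AOC3* summed, the change was 0.27 (adjusted p = 0.101) in *pgm*, -0.11 (adjusted p = 0.507) in *ss3/4*, and 0.53 (adjusted p = 0.00269) in *ss3/4/pgm*. *LOX3* was higher in *pgm* (0.90 at adjusted p = 0.00614) and *ss3/4/pgm* (1.03 at adjusted p = 0.00195), which did not pass without *pgm* ZT2 replicate 1 (0.0612) and *ss3/4/pgm* ZT2 replicate 1 (0.0569) respectively. *AOC2* was higher in *ss3/4/pgm* (0.59 at adjusted p = 0.0259), not without WT ZT2 replicate 2 (0.257) or *ss3/4/pgm* ZT2 replicate 1 (0.233) or with DESeq2 (0.118), and in *pgm* it overlapped with WT.

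Of the 10 genes at ZT2, 2 were higher and 0 lower in *pgm* (all genes 19.4% and 21.0%), 1 and 4 in *ss3/4* (26.6% and 27.4%), and 3 and 0 in *ss3/4/pgm* (19.7% and 21.7%). Between *ss3/4* and *ss3/4/pgm*, 0 were higher and 1 lower at ZT0 (9.72% and 8.67%) and 0 and 4 at ZT2 (13.6% and 12.4%). The one at ZT0, *LOX2* (-2.58 at adjusted p = 0.0278), did not pass without any one of the 4 libraries (0.0832 to 0.126). The fourth at ZT2 was *VSP2*, at 0.764 and 1.23 CPM against 2.60 and 2.96 (-1.54 at adjusted p = 0.029), which did not pass without *ss3/4* replicate 1 (0.253) or either *ss3/4/pgm* library (0.109 and 0.106). Between *ss3/4/pgm* and *pgm*, 0 passed with edgeR at either time (0.0149% of all genes at each), with 0 and 1 at an unadjusted p under 0.05 and 0 with DESeq2. Of the 20130 genes tested, 910 at ZT0 and 671 at ZT2 had such an unadjusted p with edgeR. The seed markers read 57.5 and 0.106 TPM in *ss3/4* and 16.8 and 0.118 TPM in WT at ZT2, and the root markers 54.2 and 47.6 and 62.8 and 55.6 TPM, and their part was not tested.

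**Figure D3:**
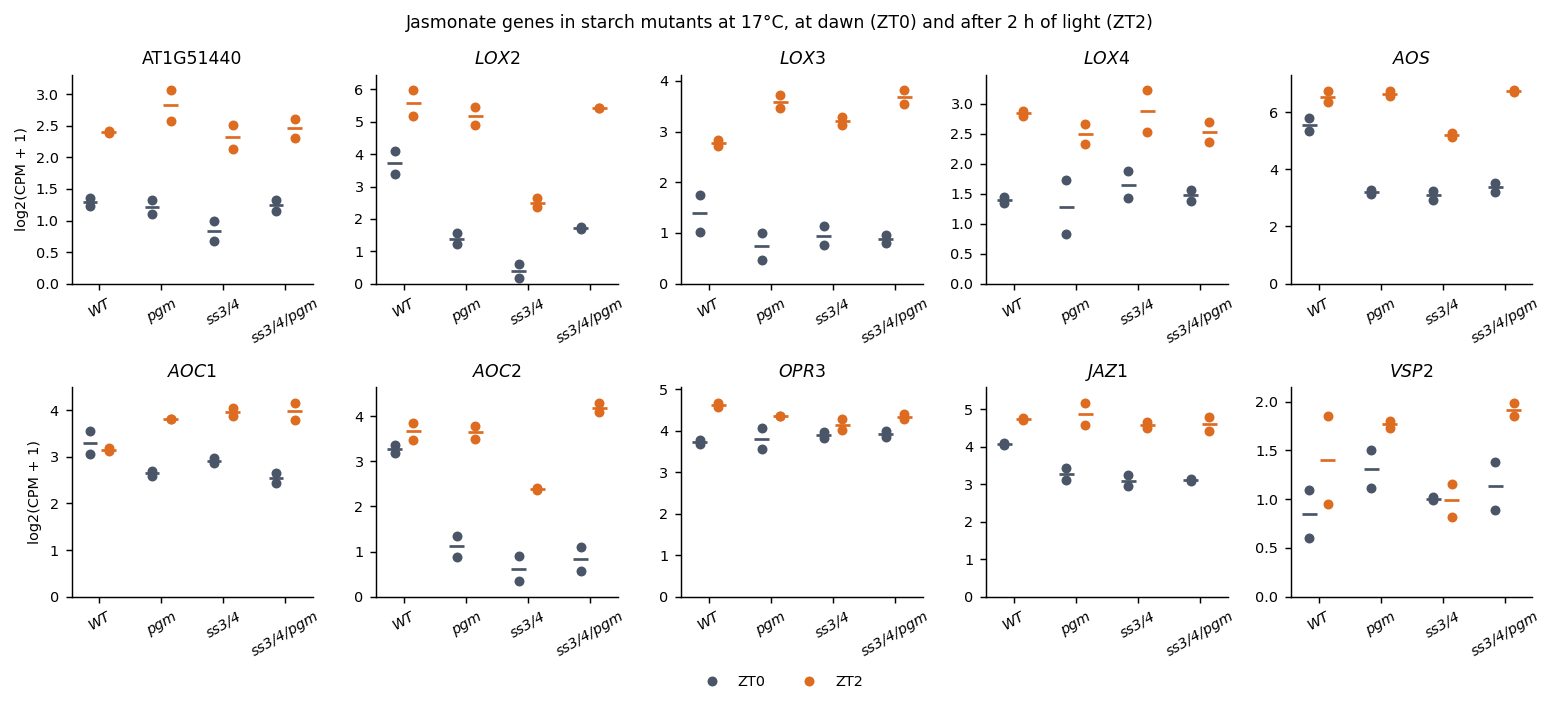
log2(CPM + 1) (vertical axes) of the 10 genes in each library of WT, *pgm*, *ss3/4*, and *ss3/4/pgm* (horizontal axes) at ZT0 and ZT2, with bars at the means of 2 libraries. *AOS* and *AOC2* start lower in the mutants at ZT0, and at ZT2 *LOX2* remains low in *ss3/4* only.

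The change from ZT0 to ZT2 within each genotype, a comparison added after the values had been seen, was larger in the mutants for several genes. In WT 7 of the 10 genes were higher at ZT2 (all genes 19.2%), in *pgm* 9 (29.8%), in *ss3/4* 8 (24.9%), and in *ss3/4/pgm* all 10 (31.2%). None was lower, where 16.2%, 28.5%, 26.8%, and 31.0% of all genes were. The *VSP2* rise in *ss3/4/pgm* (adjusted p = 0.0493) was lost in 6 of 10 alternatives, 3 of them leaving out 1 library (*ss3/4/pgm* ZT0 replicate 1, 0.254, or either ZT2 library, 0.122 and 0.136). *OPR3* was lost in *ss3/4/pgm* without replicate 1 of ZT0 (0.0823) or of ZT2 (0.124) and in *pgm* without ZT0 replicate 2 (0.163) or either ZT2 library (0.0541 and 0.0813), and in both with DESeq2. *LOX4* was lost in *pgm* without ZT2 replicate 1 (0.0684) or ZT0 replicate 2 (0.0857). *AOS* rose by 0.98 ± 0.15 (SE) on the log2 scale in WT, 3.57 ± 0.21 in *pgm*, 2.21 ± 0.19 in *ss3/4*, and 3.48 ± 0.18 in *ss3/4/pgm*. *AOC2*, which did not pass in WT (0.40), rose by 3.45, 2.70, and 4.34, from few reads at ZT0. The difference between a mutant's change and that of WT passed upward for 6 genes in *pgm* (14.4% of all genes), 4 in *ss3/4* (9.35%), and 6 in *ss3/4/pgm* (15.7%), and downward only for *OPR3* in *ss3/4* (-0.71 at adjusted p = 0.0184), where 16.8%, 12.9%, and 17.8% of all genes passed downward. Between *ss3/4* and *ss3/4/pgm*, 0 passed upward (6.08%) and 1 downward (6.08%), *AOS* (-1.27 at adjusted p = 0.00481). The *AOS* difference was 2.59 ± 0.27 (SE, adjusted p = 8.68e-07) in *pgm* and 2.51 ± 0.23 (SE, adjusted p = 1.83e-07) in *ss3/4/pgm*. AT1G51440 rose in all 4 genotypes (1.55 in WT to 2.46 in *ss3/4*), and its differences from WT did not pass. The summed root markers in the mutants went from 16.6 to 26.1 TPM at ZT0 to 47.6 to 63.7 TPM at ZT2, against 45.1 and 37.3 TPM and 62.8 and 55.6 TPM in WT, and their part was not tested.

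Of the other pathway genes at ZT0, 22 of 45 were higher and 7 lower in *pgm* (all genes 28.1% and 28.9%), 23 and 5 in *ss3/4* (30.4% and 28.1%), and 20 and 8 in *ss3/4/pgm* (30.6% and 30.7%), a description with no test of the list. The transcription factor *NAC055* (3.17 at adjusted p = 1.53e-08, 2.79 at adjusted p = 3.6e-08, and 3.38 at adjusted p = 1.49e-09) was higher in all 3. So were *MYC2* (0.70, 0.50, and 0.55) and the receptor gene *COI1* (0.53, 0.78, and 0.67). Synthesis genes beside the 10 were split, with 4 of 12 higher and 4 lower in each mutant, and the lower ones included the cyclase *AOC3* (-1.12, -1.55, and -1.43), the desaturase *FAD8* (-1.70, -1.26, and -1.52), and the ligase *OPCL1* (-1.14, -1.11, and -1.42). At ZT2 in *ss3/4*, where *LOX2* was low, 20 of the 45 were higher and 4 lower (all genes 26.6% and 27.4%), and 7 of the 10 other JAZ genes tested were higher, among them *JAZ4* (1.86 at adjusted p = 1.09e-05).

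In liquid media, the comparison with mock asked what blocking photosynthetic electron transport for the hours around dawn changes. AT1G51440 was lower in all libraries labelled with either inhibitor. It read 19.8 and 25.6 CPM untreated, 19.0 and 18.2 in mock, 0.0941 and 0.165 in the libraries labelled DCMU, and 0.530 and 0.512 in those labelled DBMIB at 22°C. At 27°C it read 23.2 and 27.9, 23.1 and 23.0, 1.23 and 0.333, and 0.263 and 0.346 CPM in the same order. All 8 inhibitor libraries were thus at 1.23 CPM or below and all 8 others at 18.2 CPM or above.

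The log2 fold change of AT1G51440 was -7.02 ± 0.46 (SE, adjusted p = 0.000444) in DCMU and -5.13 ± 0.41 (SE, adjusted p = 0.00202) in DBMIB at 22°C, and -5.17 ± 0.42 (SE, adjusted p = 0.00087) and -6.14 ± 0.41 (SE, adjusted p = 0.000621) at 27°C. The DCMU libraries at 22°C held 3 of its reads in all against 389 in mock, which is 140.1-fold lower after scaling, with a 95% exact interval of 47.6 to 682 (counting error only). The other ratios were 35.8 (18.0 to 83.6) in DBMIB at 22°C, 40.4 (19.5 to 101) in DCMU at 27°C, and 72.0 (36.3 to 167) in DBMIB at 27°C. It was the one gene of the 9 tested (*VSP2*, at 0.0941 to 0.912 CPM, was too low) that passed in each of the 4 comparisons, where 3.49%, 1.66%, 6.48%, and 6.57% of all genes passed in either direction. With only the groups compared in a fit, its adjusted p was 0.233 to 0.453, and at 27°C its DCMU value was -6.07 without DCMU replicate 1 and -4.22 without replicate 2.

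For other genes, libraries of the same inhibitor label went against each other. *JAZ1* read 16.1 and 17.2 CPM in mock at 22°C, 12 and 179 in replicates 1 and 2 labelled DCMU, and 154 and 13.1 in those labelled DBMIB. At 27°C it read 26.5 and 23.0 in mock, 14.7 and 81.7 in DCMU, and 112 and 10.3 in DBMIB. At both temperatures the high libraries were DCMU replicate 2 and DBMIB replicate 1. The same held for the heat shock gene *HSP70*, with 32.4 and 2209 CPM in DCMU and 2584 and 36.7 in DBMIB against 409 and 490.1 in mock at 22°C, and for *LOX3*, with 2.16 and 19.4 and 22.8 and 2.99 against 12.6 and 12.4. *LOX4* (3.67 and 26.7 in DCMU, 36.3 and 4.52 in DBMIB, and 2.46 and 2.82 in mock) and *OPR3* (19.9 and 43.9, 35.8 and 20, and 20.1 and 20.2) split the same way at 22°C. Libraries of 1 label lay on both sides of mock for *JAZ1* at both temperatures and for *LOX3* at 22°C, so no direction can be given there for either inhibitor. All 4 *LOX4* libraries with an inhibitor were above mock at 22°C without passing. At 27°C *LOX4* read 3.69 and 6.55 CPM in DCMU and 7.76 and 2.77 in DBMIB, all below 18.1 and 9.49 in mock, again without passing (adjusted p = 0.471 and 0.45). *LOX3* at 27°C read 6.45 and 17.0 CPM in DCMU and 29.5 and 6.57 in DBMIB against 35.8 and 25.0 in mock, and did not pass. Whether a label is wrong was not tested. AT1G51440 was low in every inhibitor library under either label, and the inhibitors were not tested against each other.

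**Figure D4:**
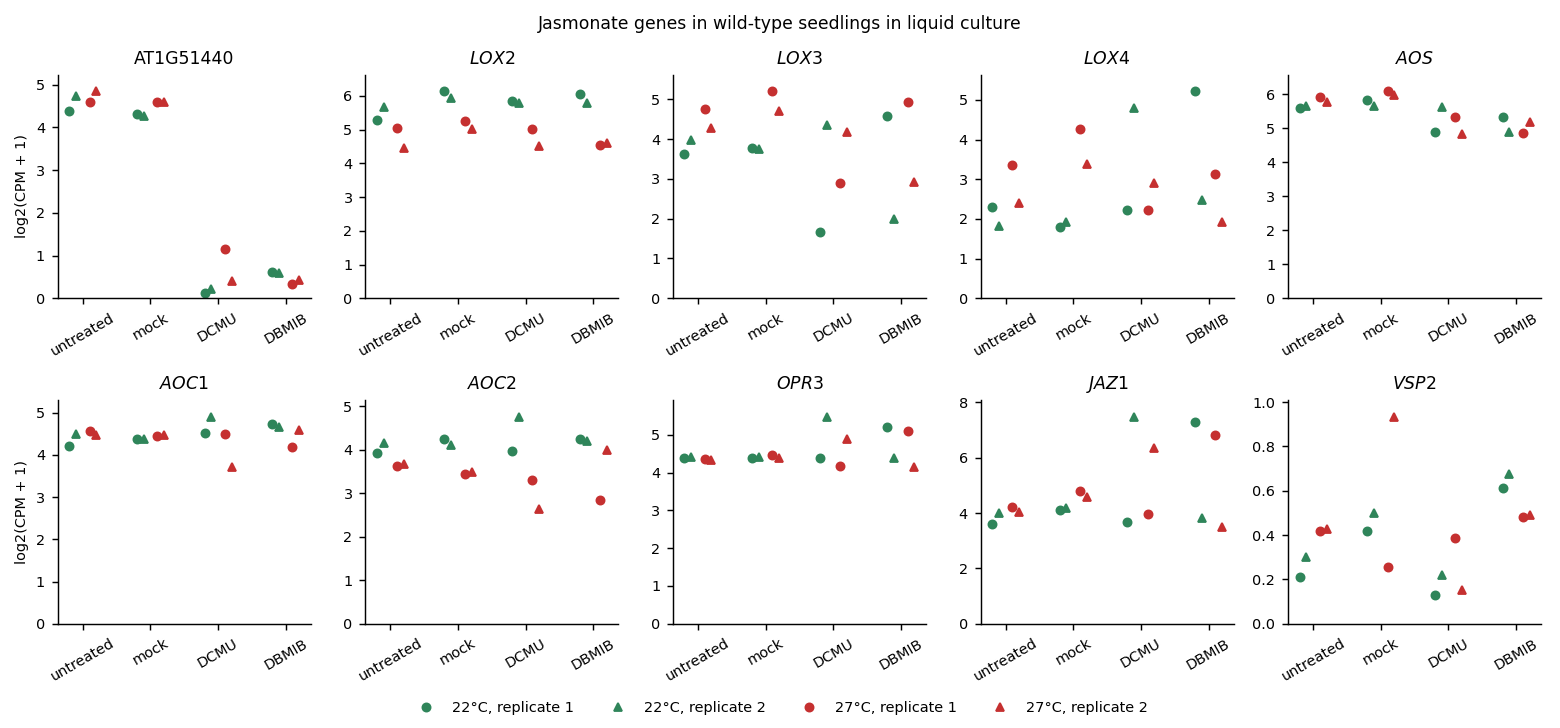
log2(CPM + 1) (vertical axes) of the 10 genes in each library of liquid media by treatment (horizontal axes), with circles for replicate 1, triangles for replicate 2, green for 22°C, and red for 27°C. AT1G51440 is near 0 in all 8 inhibitor libraries, and the replicates of *JAZ1*, *LOX3*, *LOX4*, and *OPR3* separate within each inhibitor label.

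The mean of both inhibitors against mock, added after the values had been seen, weighs both labels equally. AT1G51440 was lower at 22°C (-6.08 ± 0.33 SE, adjusted p = 6.56e-05) and at 27°C (-5.66 ± 0.31 SE, adjusted p = 7.46e-05). Of the 9 genes tested, 1 passed at 22°C (5.81% of all genes) and 2 at 27°C (11.1%), all lower. The other was *AOS*, which read 67.0 and 61.8 CPM in mock, 39.0 and 27.2 in DCMU, and 28.3 and 35.4 in DBMIB at 27°C, without overlap (-0.99 ± 0.22 SE, adjusted p = 0.0184). That call of *AOS* was lost without either mock library (0.145 and 0.121), and with only the groups compared at 27°C neither *AOS* (0.162) nor AT1G51440 (0.122) passed. *LOX2* read 37.0 and 31.6 CPM in mock at 27°C, 31.3 and 22.0 in DCMU, and 22.5 and 23.6 in DBMIB, and *AOC2* in the inhibitor libraries overlapped with mock at 22°C. *AOC1* read 19.9 and 19.8 CPM in mock, 22.0 and 29.0 in DCMU, and 25.7 and 24.3 in DBMIB at 22°C, all inhibitor libraries above mock without passing (0.35, adjusted p = 0.4).

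Among other pathway genes (49 tested), *FAD8*, a plastid desaturase that makes the fatty acid substrate, was lower in DCMU and DBMIB at both temperatures (-1.22 at adjusted p = 0.00305, -0.90 at adjusted p = 0.0155, -1.41 at adjusted p = 0.0013, and -1.36 at adjusted p = 0.00131), and *MED25*, a Mediator subunit that works with MYC2, was higher in DCMU at 22°C (0.76 at adjusted p = 0.0224) and DBMIB at 27°C (0.59 at adjusted p = 0.0367). For the mean of both inhibitors against mock, *MED25* was higher at 22°C (0.65 at adjusted p = 0.0184) and at 27°C (0.57 at adjusted p = 0.0177). In that comparison *CLH1*, listed as a response gene, was lower at 22°C (-1.09 at adjusted p = 0.0322) and at 27°C (-1.08 at adjusted p = 0.021). The summed root markers were 36.9 to 55.9 TPM in the inhibitor libraries and 61.9 to 92.6 TPM in the others, and their part was not tested.

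Between 27°C and 22°C in liquid media, 0 of 9 genes passed with edgeR in untreated (0.0197% of all genes) or mock (0.0296%) seedlings, with 1 and 2 at an unadjusted p under 0.05, and DESeq2 gave 1, *LOX2* in mock. Of the 20291 genes tested, 1594 in untreated and 1761 in mock had such an unadjusted p with edgeR. The edgeR fit shares its estimate of the spread with the inhibitor libraries. With only the groups compared, 5 tests passed upward and 4 downward, in untreated and mock together, where 25.0% and 24.0% of all genes passed in either direction. *LOX4* read 2.46 and 2.82 CPM in mock at 22°C and 18.1 and 9.49 at 27°C (2.33, adjusted p = 0.000441 in that fit), and *LOX3* 12.6 and 12.4 and 35.8 and 25.0 (1.26, 0.000349). *LOX2* read 69.7 and 59.9 and 37.0 and 31.6 CPM (-0.91, 0.000234), and *AOC2* 18.1 and 16.3 and 9.78 and 10.2 (-0.77, 0.00250). None of these pairs overlapped. In the time courses outside liquid media, with 1 library per time and no test, the ZT1 difference in log2(TPM + 1) between 27°C and 22°C was 0.75 for *LOX2* and 0.81 for *AOC2*. Those 2 genes thus went the other way there. The same difference was 0.06 for *LOX4* and 1.06 for *LOX3*. The summed flower markers, here *PI* with *AP3* near 0, read 6.43 to 10 TPM at 22°C and 25.7 to 48.3 TPM at 27°C, and their part was not tested. Between mock and untreated, 0 of 9 passed with edgeR or DESeq2 at either temperature (0.00% of all genes), with 1 at 22°C and 0 at 27°C at an unadjusted p under 0.05. Of the 20291 genes tested, 131 at 22°C and 89 at 27°C had such an unadjusted p with edgeR.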

How the data were processed

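Counts of reads per gene (60 libraries) and TPM were deposited by the authors; the TPM, which they scaled by gene length and library total, were used for WT at 22°C and 27°C (16 libraries), where the depth is unknown, and for levels between genes. The submitters' notes name FastQC, Trimmomatic, TopHat, Picard, and TAIR10. Counting rules for strand and multiple matches are not given in the sources used here, nor which library had which of the kits, sequencers, and sequencing centres named.
Counts were tested with edgeR 4.0.16 (R 4.3.3, TMM, filterByExpr, glmQLFit, glmQLFTest) in 3 fits with group as the term: 32 libraries of WT and *ss4* (20692 genes), 16 of the starch mutants with WT (20130), and 16 of liquid media (20291). The Benjamini-Hochberg adjustment ran over the genes of each comparison, with a threshold of 0.05. SE is the log2 fold change over the root of F, and CPM are TMM-scaled counts. TPM used a pseudocount of 1 on the log2 scale. On simulated data for a comparison from each of these sets, 200 of 200 genes changed by 2 on the log2 scale were recovered, with 7, 11, and 8 others called. Genes of low CPM were not among those changed, and every gene was given the same spread. The recovery therefore does not measure what these fits can find for genes of low level or of larger spread. For liquid media, the simulated counts lacked the larger spread that inhibitor libraries bring into the fit used here. Recovery there therefore does not measure how many true changes that fit can find.
Alternatives were DESeq2 1.42.0, its size factors, no filter, only the groups compared, a replicate term, leaving out each library, summed gene copies, and another pseudocount and TPM filter. The 10 genes, the 60 other pathway genes, and the markers were chosen with earlier results of these data known. Named among the 60 were, in each comparison, up to 3 called rises and 3 falls, and *VSP1*, *AOC3*, *AOC4*, *LOX6*, *MYC2*, *JAR1*, and *COI1* where they bear on the 10, without those at a few reads.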

Additional observations from a re-analysis of the deposited data

Results flagged for a closer look

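The change from ZT0 to ZT2 differed between genotypes by the test of the difference itself for several of the 10 genes, on the log2 scale. In *pgm* the change exceeded that of WT by 2.68 for *LOX2*, 1.92 for *LOX3*, 2.59 for *AOS*, 1.47 for *AOC1*, 3.05 for *AOC2*, and 0.95 for *JAZ1*. In *ss3/4* the difference from WT was 1.24 for *AOS*, 1.35 for *AOC1*, 2.30 for *AOC2*, 0.88 for *JAZ1*, and -0.71 for *OPR3*. In *ss3/4/pgm* it was 2.29 for *LOX2*, 1.98 for *LOX3*, 2.51 for *AOS*, 1.85 for *AOC1*, 3.94 for *AOC2*, and 0.95 for *JAZ1*. The *AOS* change in *ss3/4* differed from that in *ss3/4/pgm* by -1.27. The mutants share the WT libraries, so these values are not independent of each other, and the low mutant levels at ZT0 enter each of them. For *LOX2* and *AOC2* those levels rest on few reads.

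Single libraries decided some of these. Without *pgm* ZT0 replicate 1 the *LOX2* difference in *pgm* was 2.34 (adjusted p = 0.0770), and the *LOX3* difference had an adjusted p of 0.174 in *pgm* and 0.0798 in *ss3/4/pgm* without WT ZT0 replicate 1. The *LOX3* difference in *pgm* also failed without either *pgm* ZT0 library (0.0584 and 0.0750). The *JAZ1* differences failed without *pgm* ZT2 replicate 1 (0.0754) or *pgm* ZT0 replicate 2 (0.0575), without *ss3/4/pgm* ZT2 replicate 1 (0.0879), and, in *ss3/4*, without WT ZT0 replicate 2 (0.0597), *ss3/4* ZT2 replicate 1 (0.0554), or *ss3/4* ZT0 replicate 2 (0.0704). The *OPR3* difference in *ss3/4* failed without WT ZT0 replicate 1 (0.0878), WT ZT2 replicate 1 (0.0580), *ss3/4* ZT0 replicate 1 (0.0827), or *ss3/4* ZT2 replicate 1 (0.146). The *AOS* difference between *ss3/4* and *ss3/4/pgm* failed without *ss3/4* ZT0 replicate 1 (0.0839), and the *AOC2* difference in *ss3/4* was 3.43 without that library.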

How the results depend on the processing

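Counts of tests passed by the 10 genes changed as follows, with the cause not tested except where a setting has fewer libraries or genes. The share of all genes that passed under each setting is not given beside them. These counts therefore do not show whether a setting changed the calls of these genes more than those of other genes. In the WT time course, 33 tests passed upward and 2 downward, with 1 downward in DESeq2 and 28 to 34 and 0 to 2 leaving out one library each. For *ss4*, 1 passed upward (2 in DESeq2, 10 with no filter, 0 with only the groups compared, and 0 to 5 leaving out one library) and 0 downward (8 with no filter, 2 with only the groups compared, and 0 to 7 leaving out one library). For the starch mutants, 6 passed upward (3 with summed copies, 4 to 7 leaving out one library) and 23 downward (21 to 25). The 34 morning rises were 32 to 35, and of the differences between morning changes 16 passed upward (14 to 17) and 2 downward (1 in DESeq2, 0 to 3). For temperature and mock in liquid media, 0 passed (upward 5 with only the groups compared, downward 1 in DESeq2 and 4 with only the groups compared). For the inhibitors, 0 passed upward (1 in DESeq2) and 4 downward (0 with only the groups compared, 4 in each leave-one-out fit), and for both together 0 upward (1 in DESeq2) and 3 downward (1 with only the groups compared, 2 to 3 leaving out one library). The *AOC1* rise in *ss3/4* at ZT2 became -0.11 with summed copies. The median log2 peak over trough of TPM was 2.35 at 22°C and 1.92 at 27°C, and 2.81 and 2.31 with a pseudocount of 0.1 and 2.48 and 2.03 over genes with a TPM of 5.

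The replicate number paired no samples by the labels, and not every pair of same-numbered libraries deviated together, with correlations of -0.15 to 0.24 in the time course, -0.14 to 0.20 in the starch mutants, and -0.90 to 0.90 in liquid media. With a replicate block, the *VSP2* rise in *ss3/4/pgm* did not pass (1.07, adjusted p = 0.0594), and counts stayed within 1.5 times. The limits are 2 libraries per group, 1 at 22°C and 27°C, low counts for AT1G51440, *LOX4*, and *VSP2*, and gene copies whose reads may be split. Counts of *LOX2* and *AOC2* were also low in the starch mutants at ZT0.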
